A study of Homo sapiens with 12 samples.

Results

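The comparison described here set HK-2 cells kept for 72 h in medium with 2,8-dihydroxyadenine (DHA) at 120 ug/ml against HK-2 cells kept in medium alone. It used 3 libraries of each, 6 of the 12 libraries of the series, chosen by their titles. The other 6 libraries held DHA at 60 and 240 ug/ml and served to estimate the spread and to place the middle dose between its neighbours. The series title asks about the integrity and the phenotype of kidney epithelial cells exposed to DHA. HK-2 is an established line of human proximal tubule epithelium, immortalized with papillomavirus oncogenes and grown without the other cells of the kidney. All groups grew in minimal essential medium with serum, pyruvate and antibiotics. DHA was given as a suspension, and a control with a suspending agent or with inert particles was not analysed here.

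DHA is a poorly soluble product of adenine oxidation by xanthine dehydrogenase, formed when adenine phosphoribosyltransferase (APRT) does not salvage adenine, and it crystallizes in the tubule. The proximal tubule epithelium holds a barrier of tight and adherens junctions on a laminin matrix, and takes up solutes through apical transporters. Injured tubule cells are known to lose transporters, to switch on injury genes such as HAVCR1, and to re-enter the cell cycle. Growth factor receptors signal through the kinase ERK, whose activity is commonly read from the feedback genes it induces, among them the DUSP and SPRY genes.

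Each value is a deposited normalized signal, summed over the transcripts of a gene and printed per library or as mean ± SD (n = 3 libraries throughout). The library totals of this signal were 1143850 to 1228979 in control and 875886 to 962259 at 120 ug/ml, without overlap, and the read depth is unknown. Because the totals differ, the gene lists are given on the deposited scale and most of them again after every library was scaled to an equal total. Under the second scaling the median gene's log2 fold change went from -0.033 to 0.27. On the first principal component of the genes tested the control libraries scored -43, -47.1 and -39.1 and those at 120 ug/ml 19.7, 20.3 and 23.3. The mean length of the transcripts, weighted by signal, was 1532 to 1581 bases in control and 1739 to 1818 bases at 120 ug/ml.

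The epithelial identity of the line was visible in part. The kidney factor PAX8 was 237, 222 and 232 in the control libraries and 336, 316 and 261 at 120 ug/ml. EPCAM, an epithelial adhesion protein, was 232, 243 and 233 in the control libraries and 156, 171 and 183 at 120 ug/ml, and KRT18, KRT19 and KRT7, keratins of simple epithelia, were also present. KRT8, another such keratin, was called lower (log2 fold change -0.85). That call was lost with equal library totals and without control replicate 1 or 2 or replicate 3 at 120 ug/ml. The epithelial marker CDH1 was low in all 6 libraries, as given with the junction genes. Of 31 proximal tubule genes, 16 were too low to be tested, among them the phosphate transporter SLC34A1 (at most 0.8), the endocytic receptors LRP2 (0 in all 6 libraries) and CUBN (at most 0.3), the organic anion transporter SLC22A6 (0 in all 6) and the water channel AQP1 (at most 0.4). The label proximal tubule epithelium is carried here by PAX8, GGT1, MIOX, PDZK1 and the peptidases ENPEP and DPP4, while the apical carriers SLC5A2, SLC9A3 and SLC3A1 stood between 0.4 and 4.3 in the 6 libraries. Markers of other cells were mostly at or near 0. Of 8 endothelial, 9 leukocyte and 8 fibroblast markers 1, 1 and 3 could be tested, and PTPRC, COL3A1, KDR and NPHS1 were listed at 0 in all 6 libraries. The signal summed over the 9 leukocyte markers was 110.5 to 140.4 in control and 83.1 to 122.3 at 120 ug/ml. Nearly all of it came from the 1 tested marker, as the others were at most 0.7.

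Of 16787 genes tested with limma, 2670 (15.9%) were called higher and 3485 (20.8%) lower with DHA at 120 ug/ml, at an adjusted p under 0.05. A log2 fold change of at least 1 was reached by 237 of the higher genes (1.41% of those tested) and by 659 of the lower genes (3.93%). With equal library totals the counts were 6094 higher and 1356 lower of 16678 genes tested, so the balance between directions depends on the scaling. The list counts that follow are to be read against 15.9% and 20.8% on the deposited scale. Those with equal totals are to be read against 6094 and 1356 of 16678. A list near these shares did not differ from genes at large. Among the genes named in what follows as not called, 16 were called higher under equal totals, by 0.32 to 0.80 against 0.27 for the median gene: APRT, AREG, ATF4, CXCL8, DDIT3, EGFR, HPRT1, KRT18, LHX1, MIOX, NDUFS1, NQO1, SDHA, SQSTM1, TGFB1 and VIM. In 3651 genes (21.7%) every library at 120 ug/ml lay above every control library, and in 4594 (27.4%) every one lay below. Among 12729 protein-coding genes 2384 (18.7%) rose and 3084 (24.2%) fell.

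The gene with the highest protein-coding fold change was CCND1, which encodes cyclin D1, the G1 partner of CDK4 and CDK6 (ENSG00000110092.3, chr11:69641087-69654474, plus strand of GRCh38). Its values were 6.7, 5.8 and 4.4 in the control libraries and 63, 51.7 and 55.8 at 120 ug/ml (log2 fold change 3.13, SE 0.18, limma adjusted p = 4.86e-06). ANGPTL4, an inhibitor of lipoprotein lipase, was 18.5, 16.7 and 14.4 in the control libraries and 136, 114 and 152 at 120 ug/ml (log2 fold change 2.94). SLC7A5, the light chain of the transporter of large neutral amino acids, was 22.5, 17.8 and 26.6 in the control libraries and 144, 148 and 148 at 120 ug/ml (2.68). In each of these genes the lowest library at 120 ug/ml lay far above the highest control library. HMGA2, a chromatin protein of embryonic and transformed cells, was 64.1, 54.7 and 50.6 in the control libraries and 317, 286 and 274 at 120 ug/ml (2.36), and SLCO4A1, an organic anion transporter, rose from 41.9 ± 6.44 to 259.5 ± 16.4. ARHGAP22, a GTPase activator for Rac, rose from 15.9 ± 1.27 to 87.3 ± 8.23, CSF2, the growth factor GM-CSF, from 8.67 ± 2.3 to 57.5 ± 4.79, and SCEL, a protein of the cornified envelope, from 3.37 ± 0.451 to 26.6 ± 3.51. SIGLEC15, a sialic acid receptor, completed the group beside 3 genes of the ERK pathway.

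MMP7, the metalloproteinase matrilysin (ENSG00000137673.8, chr11:102520508-102530753, minus strand of GRCh38), had the lowest fold change of the protein-coding genes. Its values were 308, 388 and 449.9 in the control libraries and 27.6, 26.7 and 31.1 at 120 ug/ml (log2 fold change -3.69, SE 0.33, limma adjusted p = 2.84e-05). SPARC, a secreted protein that binds collagen, was 1821, 1947 and 2119 in the control libraries and 378, 344 and 411 at 120 ug/ml (-2.38). PDZK1IP1, a membrane protein of the proximal tubule that partners PDZK1, was 484, 491 and 420 in the control libraries and 105, 95.3 and 91.1 at 120 ug/ml (-2.25). AGT, the precursor of the angiotensins, was 15.5, 19.1 and 14.5 in the control libraries and 2.6, 2.3 and 1.8 at 120 ug/ml (-2.42). No library at 120 ug/ml reached the lowest control library in any of them. CCL2, a monocyte chemokine, fell from 12.7 ± 7.5 to 1.27 ± 0.416, where the third control library (21.2) stood above the other controls. The phospholipase PLA1A, the sodium pump partner NKAIN4, the transcriptional inhibitor ID3, the interferon-induced IFITM1, the metallothionein MT1F and the placental glycoprotein PSG5 had the other low values (log2 fold changes -2.58 to -2.25). MT1F and PSG5 belong to families of near-identical genes, so the split of reads within their families is uncertain.

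**Figure D1:**
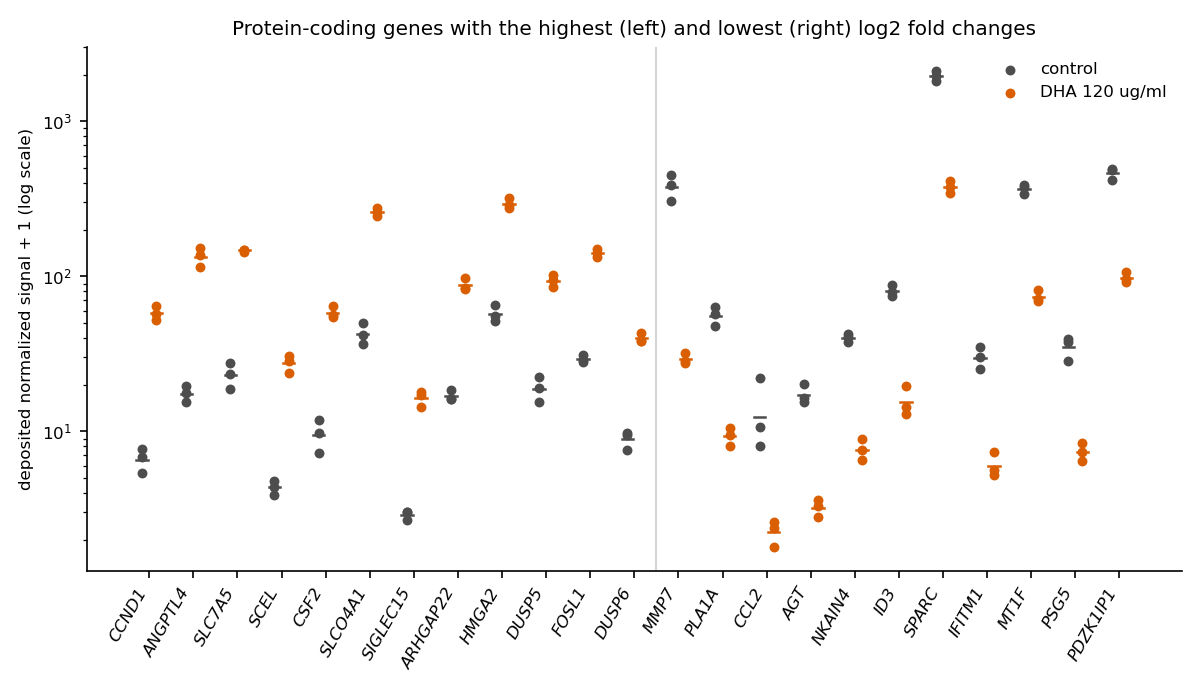
Deposited normalized signal + 1 on a log axis for the protein-coding genes described as having the highest and the lowest log2 fold changes, with a higher group mean of at least 10. Each point is a library (3 in control, 3 at 120 ug/ml DHA) and each bar the mean on the log scale. The groups do not overlap in any of these genes, which were chosen for their difference.

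Epithelial integrity, of which the series title speaks, was read from lists of junction genes chosen for this purpose. Among tight junction genes 3 of 26 tested members rose and 6 fell (10 and 2 with equal library totals; median log2 fold change -0.12, or 0.24). On the deposited scale these shares are close to the 15.9% and 20.8% of all genes tested. CLDN1, a sealing claudin, was 204, 198 and 219 in the control libraries and 353, 333 and 350.2 at 120 ug/ml (log2 fold change 0.74, SE 0.085, limma adjusted p = 1.03e-04). The scaffold TJP1, which anchors claudins to actin, was 14.5, 15.3 and 19.1 in the control libraries and 18.6, 15.8 and 16.4 at 120 ug/ml. LLGL2, a polarity protein of the lateral membrane, fell from 2.2 ± 0.2 to 0.467 ± 0.208, CRB3, an apical polarity protein, from 54.3 ± 1.01 to 28.7 ± 2.27, and MARVELD3 from 6.03 ± 0.643 to 3.07 ± 0.723. The adhesion molecule F11R fell from 72 ± 2.65 to 47.8 ± 4.65. The calls of MARVELD3 and F11R were lost with equal library totals. CLDN2, the claudin that makes the proximal tubule leaky to cations, was 170, 168 and 99.3 in the control libraries and 137, 166 and 95.7 at 120 ug/ml, and its groups overlapped. Occludin (OCLN) was below 2 in all 6 libraries. TJP1 and OCLN had limma adjusted p = 0.746 and 0.309.

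Among adherens junction and desmosome genes 2 of 21 tested members rose and 10 fell (6 and 3 with equal library totals; median log2 fold change -0.23, or 0.12). The count that fell was 6 without control replicate 2 and 6 under quantile normalization. CDH16, the kidney-specific cadherin (ENSG00000166589.12, chr16:66908122-66918984, minus strand of GRCh38), was 12.9, 14.8 and 10.9 in the control libraries and 3.2, 4.3 and 2.6 at 120 ug/ml (log2 fold change -1.68, SE 0.23, limma adjusted p = 2.67e-04). JUP, plakoglobin, which links cadherins to keratin or actin, was 79.5, 87.1 and 85.8 in the control libraries and 47, 49.9 and 40.2 at 120 ug/ml (-0.87), and CTNND1, p120 catenin, which holds cadherins at the membrane, was 40.9, 42.8 and 39.3 in the control libraries and 25.5, 26.5 and 18.6 at 120 ug/ml (-0.79). In these 3 genes the groups did not overlap. CDH1, E-cadherin, was low throughout, at 1.3, 2.7 and 1.6 in the control libraries and 0.3, 0.3 and 1.5 at 120 ug/ml, and its groups overlapped. Its call (-0.80, limma adjusted p = 0.0348) was lost with equal library totals and when control replicate 2 or 3 or replicate 1 or 2 at 120 ug/ml was left out (limma adjusted p 0.0577 to 0.141). The desmosomal cadherin DSC3 fell from 4.87 ± 1 to 2.67 ± 0.153, a call lost under equal totals. The 2 members that rose were CTNNB1, beta-catenin (0.28), and NECTIN1 (0.45). The call of NECTIN1 was lost without control replicate 1 (limma adjusted p = 0.0513), and that of CTNNB1 without control replicate 2 or 3 or replicate 1 or 3 at 120 ug/ml (limma adjusted p 0.0683 to 0.13). CDH6, a cadherin of the developing and adult proximal tubule, was 422, 402 and 366 in the control libraries and 337, 343 and 307 at 120 ug/ml (-0.27, limma adjusted p = 0.0215; 0.10 with equal library totals). Its call was lost under that scaling and without control replicate 1 or 2 or replicate 3 at 120 ug/ml (limma adjusted p 0.0684 to 0.0924). CDH2, N-cadherin, was 68.8, 71.3 and 74.5 in the control libraries and 64, 55.1 and 63.2 at 120 ug/ml (limma adjusted p = 0.0783).

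Below the cells, 5 of 21 integrin and laminin genes rose and 7 fell (7 and 1 with equal library totals; median log2 fold change -0.087, or 0.27). LAMB3, a laminin chain of epithelial anchorage, was 41.3, 42.4 and 40.9 in the control libraries and 99, 87.9 and 94.8 at 120 ug/ml (1.16). ITGA3, the laminin receptor subunit of kidney epithelium, was 474, 450.5 and 399 in the control libraries and 909, 917 and 773 at 120 ug/ml (0.97), and PLEC, which ties hemidesmosomes to keratin, rose from 25.5 ± 0.781 to 50.1 ± 1.63. ITGB6, the epithelial integrin that activates latent TGF-beta, was 14.3, 16 and 18.5 in the control libraries and 7, 6.7 and 6.1 at 120 ug/ml (-1.18). LAMA5 and LAMB2, chains of mature basement membrane laminins, fell from 90.2 ± 11 to 48.2 ± 11.5 and from 81.6 ± 2.63 to 49.4 ± 5.21, calls lost with equal library totals. ITGB1, the common beta subunit, was 775, 735 and 768 in the control libraries and 594, 515 and 571 at 120 ug/ml (-0.44), a call also lost under that scaling.

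Matrix genes were mostly lower. Among collagens and matrix proteins 1 of 24 tested members rose and 16 fell (2 and 11 with equal library totals; median log2 fold change -0.80, or -0.47). COL4A1, a collagen of basement membranes, was 603, 619 and 663 in the control libraries and 249.5, 222 and 226 at 120 ug/ml (-1.43). LUM, a small proteoglycan that binds collagen fibres, was 258, 225 and 196 in the control libraries and 47.2, 50.7 and 46.7 at 120 ug/ml (-2.20), COL1A1 fell from 17.5 ± 1.91 to 4.97 ± 0.577, EFEMP1, fibulin 3, from 68.5 ± 3.8 to 25 ± 1.99, and COL5A1 from 10.9 ± 1.32 to 4.07 ± 0.473. Of the mesenchymal list 11 of 17 tested members fell and 1 rose (8 and 2 with equal library totals). Among those that fell were TAGLN (-1.18) and ACTA2 (-0.99), smooth muscle proteins, and SNAI2 (-0.98), a repressor of cadherin genes. The 1 member that rose was ZEB1, another such repressor (3.33 ± 0.305 to 5.37 ± 0.586), with its call lost without control replicate 2 or without replicate 1 or 3 at 120 ug/ml (limma adjusted p 0.0519 to 0.0605). The intermediate filament VIM was 1512, 1597 and 1518 in the control libraries and 1489, 1334 and 1660 at 120 ug/ml and the gene sum of fibronectin, FN1, was 7318 ± 959.8 in control and 6438 ± 622 at 120 ug/ml, neither of them called. LUM, COL1A1 and DCN are also the 3 tested fibroblast markers, and the signal summed over the 8 markers was 246.9 to 342.3 in control and 67 to 76.4 at 120 ug/ml. The defining fibroblast markers PDGFRA and DPT were at most 0.2 in any of the 6 libraries, COL3A1 was at 0, and PDGFRB was at most 1.8. The part of such cells in the fall of matrix genes was not tested. In bulk RNA fewer cells of a type and less RNA per cell cannot be told apart.

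Among extracellular proteases, 6 of 13 metalloproteinase and TIMP genes fell, MMP7 among them, and 1 rose (2 fell and 6 rose with equal library totals). Of 8 genes of the plasminogen activator system 4 rose and 2 fell (6 and 0 with equal totals). PLAT, tissue plasminogen activator, was 3.1, 4.4 and 2.8 in the control libraries and 18.5, 15.4 and 17.9 at 120 ug/ml (2.06), PLAU, urokinase, was 323, 324 and 275 in the control libraries and 716, 838 and 666 at 120 ug/ml (1.26), and its receptor PLAUR rose from 42.9 ± 3.72 to 83.8 ± 1.96. F3, tissue factor, the start of the coagulation cascade, was 20.3, 17.6 and 23.1 in the control libraries and 64.7, 47.5 and 64.8 at 120 ug/ml (1.49). In PLAT, PLAU, PLAUR and F3 the libraries at 120 ug/ml lay above all controls.

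On the deposited scale the ERK output list had the highest share of members called higher among the lists with at least 7 tested members. In it 18 of 20 tested members rose and 0 fell (18 and 0 with equal library totals; median log2 fold change 1.05, or 1.38). With equal totals 20 of 22 ribosome biogenesis genes and 27 of 30 DNA replication genes rose, so the ERK output list did not lead under that scaling. Over all genes tested 15.9% rose on the deposited scale, and 6094 of 16678 rose with equal totals. DUSP6, the cytoplasmic phosphatase of ERK, was 8.8, 8.5 and 6.6 in the control libraries and 37.5, 37.2 and 42.3 at 120 ug/ml (log2 fold change 2.16, SE 0.12, limma adjusted p = 4.86e-06). DUSP5, its nuclear counterpart, was 21.4, 18.1 and 14.5 in the control libraries and 101, 94.3 and 84.6 at 120 ug/ml (2.32), and FOSL1, an AP-1 subunit that ERK stabilizes, was 30.2, 27.8 and 27.2 in the control libraries and 149, 141 and 132 at 120 ug/ml (2.27). The inhibitors SPRY2, SPRY4 and SPRY1 rose by log2 fold changes of 1.33, 1.25 and 1.11, and the ETS factors ETV4 and ETV5 by 1.65 and 1.00. TMEM158 rose from 1 ± 0.1 to 9.73 ± 0.71 and PHLDA1 from 30 ± 4.71 to 117 ± 7.37. The 2 tested members that were not called were EPHA4 (7.73 ± 0.322 in control and 5.9 ± 0.4 at 120 ug/ml) and SPRED3 (1.6 ± 0.625 in control and 1.93 ± 0.723 at 120 ug/ml). A separate list held 8 other dual-specificity phosphatases, of which 3 rose and 2 fell (4 and 0 with equal totals; median 0.18, or 0.47). DUSP9 (1.17), DUSP2 (0.91) and DUSP7 (0.70) rose. DUSP1 (-0.45) and DUSP16 (-0.50) fell, calls lost with equal totals. Members were assigned to lists with earlier results of these data known, so the rank of the ERK output list depends on that choice.

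Among ligands and receptors of the EGF family 5 of 16 tested members rose and 2 fell (8 and 2 with equal library totals; median log2 fold change -0.054, or 0.31). EREG, epiregulin, was 20.9, 20.1 and 21.6 in the control libraries and 60.8, 66.2 and 71.3 at 120 ug/ml (1.61), TGFA rose from 28.5 ± 3.04 to 54.1 ± 4.82, and ERRFI1, a feedback inhibitor of the receptor, from 51.2 ± 4.45 to 149.7 ± 13.6. HBEGF was 46.8, 46.4 and 54.1 in the control libraries and 27.6, 21.9 and 31.8 at 120 ug/ml (-0.85), lower in every library at 120 ug/ml. EGFR itself was 38.3, 37.9 and 38.5 in the control libraries and 39.4, 38.9 and 37.6 at 120 ug/ml and the ligand AREG 40.4, 37.7 and 36.7 in the control libraries and 37.5, 39.9 and 41.2 at 120 ug/ml. Neither of these receptor and ligand values passed the test. Of 12 tested AP-1 and small MAF genes 7 rose and 2 fell (8 and 0 with equal library totals) and of 17 other immediate early genes 10 rose and 2 fell (12 and 0). FOSB (1.33) and FOS (1.06) were higher, and JUNB (-0.49) and JUND (-0.47) were called lower on the deposited scale but not with equal totals. The orphan receptor NR4A1 rose from 1.13 ± 0.153 to 5.37 ± 0.451 and KLF4 from 0.9 ± 0.173 to 3.1 ± 0.265, while EGR1 was 6, 5.4 and 5.4 in the control libraries and 4, 3.8 and 2.8 at 120 ug/ml, below every control library but not called (limma adjusted p = 0.0925; 0.0142 without DHA 60 ug/ml replicate 3).

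Promoter sequences of RefSeq on GRCh38.p14, the 250 bases before a gene's start, were searched on both strands for the AP-1 letters TGANTCA and the ETS letters CCGGAAG. AP-1 letters stood in 4.08% of 1961 promoters of genes that rose, in 4.17% of 2661 of genes that fell and in 3.96% of the 11046 promoters of genes tested. For the ETS letters these shares were 16.1%, 14.9% and 15.9%. Of 14 ERK output genes with a promoter in the table, 1 held the AP-1 letters and 0 the ETS letters. The 1 match lay 60 bases before the start of SPRED3, a member that was not called.

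Genes of the cell cycle rose next to CCND1. Of 28 mitosis genes 15 rose and 0 fell, and of 30 DNA replication genes 13 rose and 0 fell (24 and 27 rose with equal library totals). Without control replicate 1 these counts were 9 and 7, and without control replicate 2 that of mitosis genes was 9. MKI67, the proliferation antigen Ki-67, was 30.7, 28.6 and 40.8 in the control libraries and 65.7, 73 and 71.1 at 120 ug/ml (1.06), and PLK1, a mitotic kinase, was 51.7, 53 and 62.7 in the control libraries and 103, 118 and 104 at 120 ug/ml (0.95). UHRF1, which maintains DNA methylation behind the replication fork, was 10.1, 13.8 and 14 in the control libraries and 32.3, 30.1 and 28.8 at 120 ug/ml (1.22). CCNB1, the mitotic cyclin, was 102, 114 and 123 in the control libraries and 110.1, 94.6 and 142 at 120 ug/ml, and PCNA, the replication clamp, was 333, 408 and 437 in the control libraries and 312, 294 and 390.3 at 120 ug/ml. Neither was called. A list of 18 genes held other cyclins, CDKs, CDK inhibitors, E2F1 and RB family genes, but not CCND1. Of these 18 genes 4 rose and 7 fell (9 and 4 with equal library totals). The inhibitors CDKN2B, CDKN2C and CDKN1C had log2 fold changes of -1.14, -1.34 and -1.39, and CDKN1B, p27, fell from 33.5 ± 2.75 to 20.5 ± 1.35. CDKN1A, p21, was 74.4, 75.3 and 85 in the control libraries and 64.2, 72.5 and 69.6 at 120 ug/ml and was not called. CDK6 rose from 29.6 ± 3.13 to 42.1 ± 2.05.

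Nutrient and growth genes also rose. Of 19 amino acid transporters 11 rose and 2 fell (14 and 0 with equal library totals). Of 22 genes of amino acid synthesis and the integrated stress response 13 rose and 0 fell (19 and 0 with equal library totals). SLC3A2, the heavy chain that SLC7A5 needs at the membrane, was 45.8, 40.9 and 46.1 in the control libraries and 99.5, 108 and 112 at 120 ug/ml (1.25). SLC6A9, a glycine transporter, rose from 2.67 ± 0.839 to 10.2 ± 0.351, and SLC38A5, a glutamine transporter, from 10.9 ± 1.07 to 34.6 ± 7.17. ASNS, asparagine synthetase, was 55.9, 47.7 and 56.6 in the control libraries and 119, 104 and 113 at 120 ug/ml (1.06), and DDIT4, an inhibitor of the growth kinase mTORC1, was 90.6, 68.4 and 83.4 in the control libraries and 314, 249.9 and 301 at 120 ug/ml (1.83). CHAC1, which degrades glutathione, rose from 6.4 ± 1.05 to 24.7 ± 1.55. ATF4, the factor that drives these genes in the stress response, was 13.1, 11.3 and 10.9 in the control libraries and 14.1, 14.2 and 9.9 at 120 ug/ml, and DDIT3, the factor CHOP, was 47.7, 44.1 and 43.8 in the control libraries and 45.8, 44.7 and 47.3 at 120 ug/ml. The groups of ATF4 and DDIT3 overlapped, and of 18 endoplasmic reticulum chaperones 2 rose and 1 fell (11 and 0 with equal totals).

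Among glycolysis and hypoxia genes 15 of 30 tested members rose and 0 fell (25 and 0 with equal library totals; median log2 fold change 0.49, or 0.85). The count that rose was 9 without replicate 1 at 120 ug/ml and 24 under quantile normalization. HK2, hexokinase 2, was 17.5, 14.4 and 14.3 in the control libraries and 52.8, 47.8 and 49.7 at 120 ug/ml (1.64), and VEGFA, the angiogenic factor, was 48.8, 35.7 and 38 in the control libraries and 160.5, 146 and 138 at 120 ug/ml (1.84). NDRG1 rose from 84.5 ± 12.3 to 167 ± 35.4, GPI from 341 ± 21.8 to 590.2 ± 19.5 and the lactate exporter SLC16A3 from 182 ± 4.9 to 312 ± 47.4. GAPDH was 7656 ± 834 in control and 7208 ± 969 at 120 ug/ml and TPI1 1435 ± 45.5 in control and 1347 ± 169.7 at 120 ug/ml, neither of them called.

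The genes of ribosome assembly and those of the ribosome itself went opposite ways. Of 22 ribosome biogenesis genes 18 rose and 0 fell (20 and 0 with equal library totals; median log2 fold change 0.74, or 1.09). NOP2, an RNA methyltransferase of the nucleolus, was 30, 38 and 30.6 in the control libraries and 71.6, 73.1 and 73.9 at 120 ug/ml (1.13), NCL, nucleolin, was 191, 176 and 182 in the control libraries and 295, 292 and 421 at 120 ug/ml (0.85), and BOP1 and DDX21 rose by 1.00 and 0.98. Of 78 cytosolic ribosomal proteins 77 fell and 0 rose (median -1.11; 72 fell, with a median of -0.75, under equal totals). Quantile normalization gave 48 that fell, 2 that rose and a median of -0.42. RPL39 was 7024, 6796 and 5363 in the control libraries and 1613, 1398 and 2528 at 120 ug/ml (-1.83), RPS20 was 4658, 4423 and 3833 in the control libraries and 1174, 997 and 1733 at 120 ug/ml (-1.76) and RPL41 fell from 7062 ± 812 to 2282 ± 498. The elongation factor EEF1A1 fell from 4766 ± 772 to 2005 ± 285 and TPT1, a short message regulated like the ribosomal proteins, from 2936 ± 409 to 1025 ± 178. Of 32 translation factors 8 rose and 12 fell (17 and 6 with equal totals), and the count that rose was 16 under quantile normalization and 4 without control replicate 1 or without replicate 3 at 120 ug/ml. The initiation factors EIF4G1 (0.77) and EIF3B (0.78) rose, and EIF3L (-0.95) and EIF3H (-0.79), subunits of the same complex as EIF3B, fell. Many ribosomal protein genes have near-identical processed copies, so their single values are uncertain.

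Of 45 nuclear genes of the respiratory chain 29 fell and 0 rose (median -0.69; 23 fell and 5 rose, with a median of -0.33, under equal totals). COX7C, a small subunit of complex IV, was 905, 806 and 736 in the control libraries and 249, 211 and 359 at 120 ug/ml (-1.61), and NDUFA1, a small subunit of complex I, was 516, 556 and 509.7 in the control libraries and 185, 172 and 279 at 120 ug/ml (-1.34). The long subunits SDHA (111 ± 6.53 in control and 123 ± 7.69 at 120 ug/ml) and NDUFS1 (31.9 ± 1.52 in control and 32.5 ± 3.05 at 120 ug/ml) were not called. Of 13 mitochondrially encoded messages 1, MT-CO3 (-1.04), fell, a call lost when genes of very low value were also tested (limma adjusted p = 0.157).

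These lists are made of short messages, and length moved with the direction of change over all genes. With protein-coding genes put in 10 bins of equal size by transcript length, in the shortest bin 4.95% rose and 43.8% fell (median log2 fold change -0.384), and in the longest bin 30.7% rose and 13% fell (median 0.142). Across genes the correlation of the fold change with log10 transcript length was 0.071, and with GC content 0.022, given as a description over 16774 and 16787 genes of the same libraries. With each library's trends on length and GC content subtracted, 75 of 78 ribosomal proteins fell (median -0.88) and 27 of 45 respiratory chain genes fell (median -0.56). The same fit called 17 of 20 ERK output and 18 of 22 ribosome biogenesis genes higher.

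**Figure D2:**
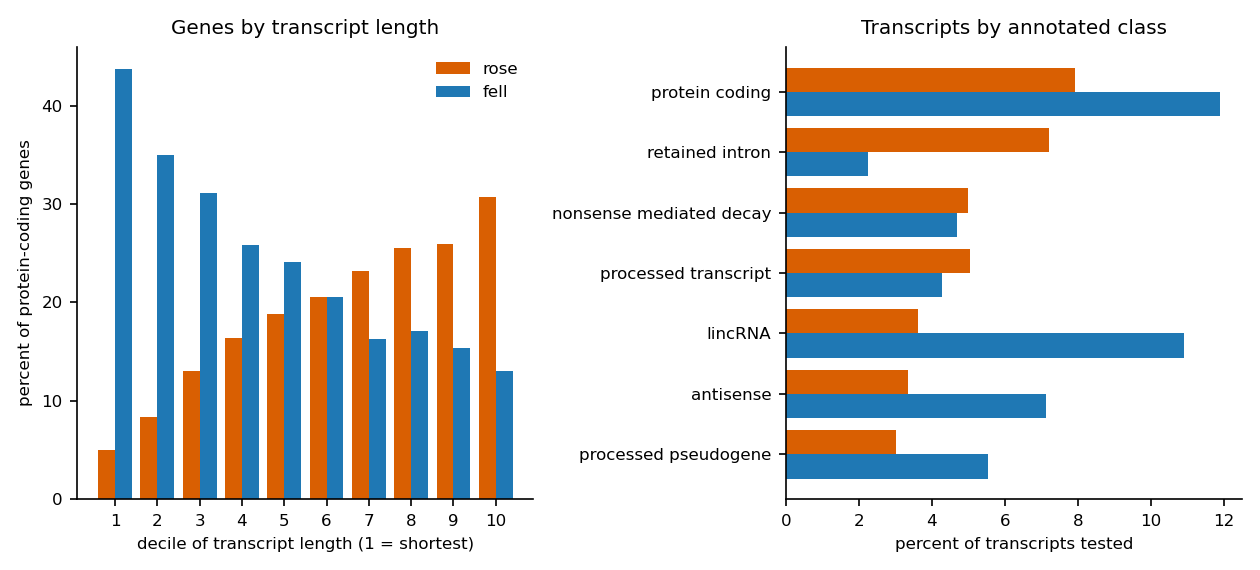
Left, percent of protein-coding genes called higher or lower at 120 ug/ml in each of 10 bins of transcript length, from the shortest (1) to the longest (10). Right, percent of single transcripts called higher or lower by annotated class. Calls lower fall from 43.8% to 13% along the bins. Retained-intron transcripts were called higher in 7.22% and lower in 2.26%, and protein-coding transcripts in 7.91% and 11.9%.

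**Figure D3:**
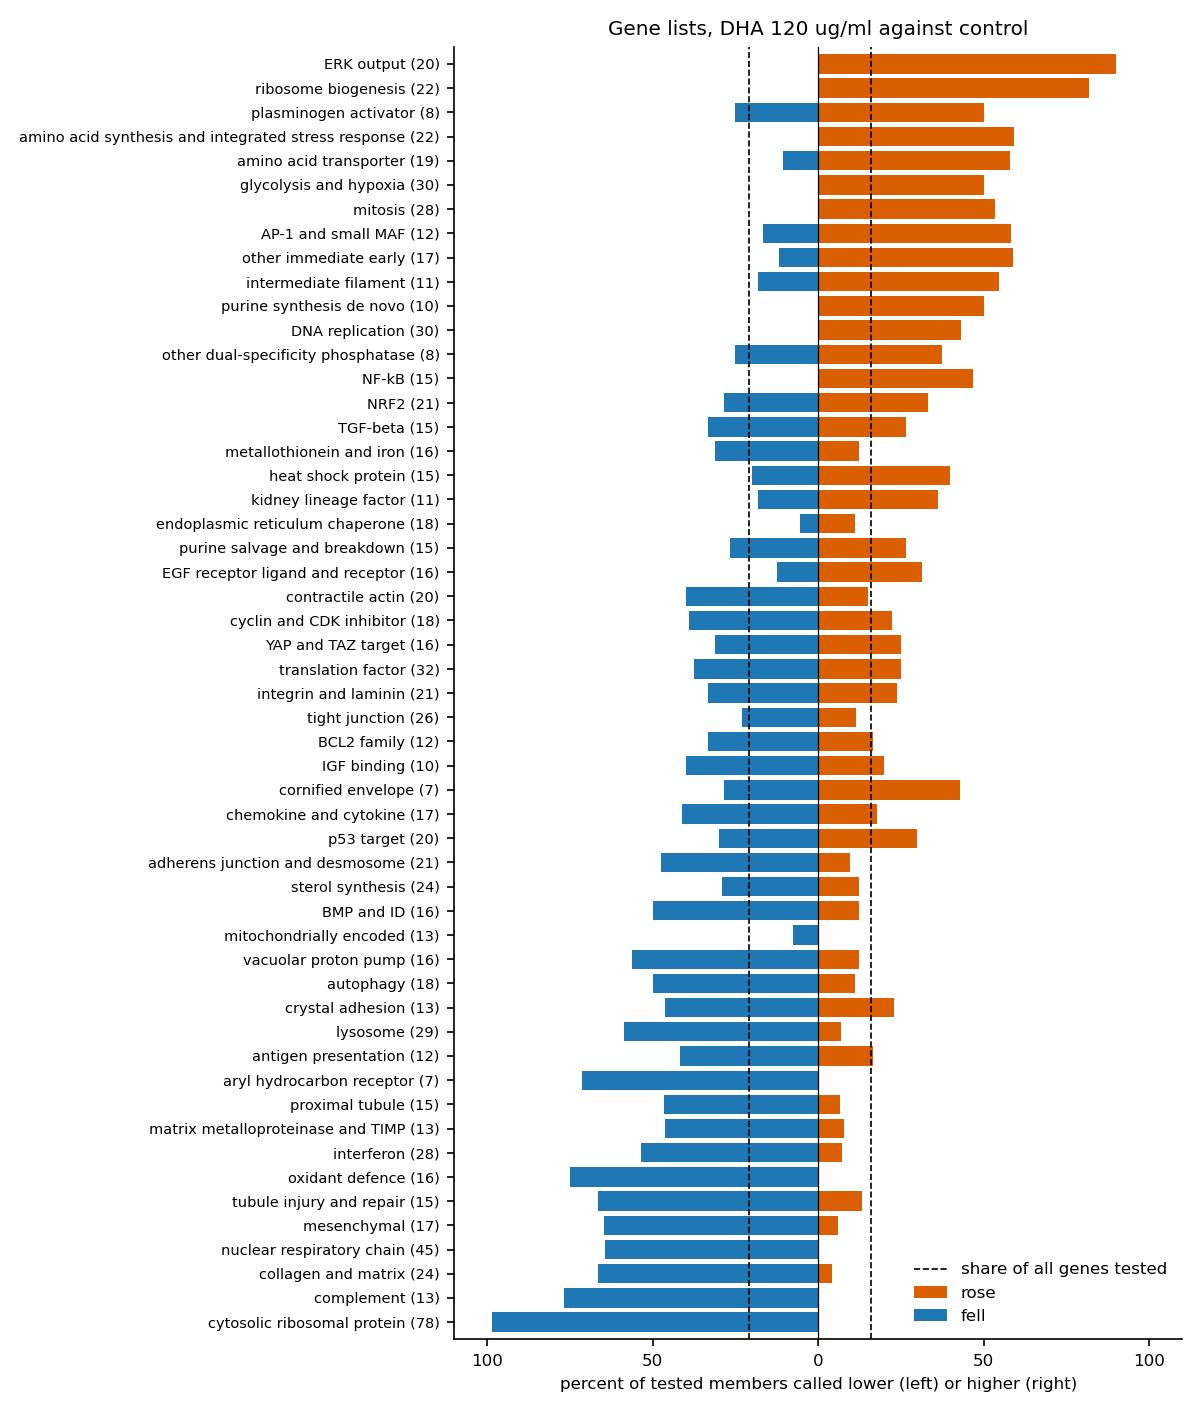
Percent of the tested members of each gene list called higher (right) or lower (left) at 120 ug/ml, with the number tested in brackets, ordered by median log2 fold change (lists with at least 7 tested members). Dashed lines mark the shares over all genes tested, 15.9% higher and 20.8% lower. ERK output and ribosome biogenesis stand at the top, cytosolic ribosomal proteins and complement at the bottom.

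Genes read as signs of tubule injury were mostly lower. Among them 2 of 15 tested members rose and 10 fell (3 and 6 with equal library totals; median log2 fold change -0.57, or -0.20). HAVCR1, the injury molecule KIM-1 (ENSG00000113249.12, chr5:157029413-157059119, minus strand of GRCh38), was 266, 248 and 227 in the control libraries and 129, 130.2 and 94.8 at 120 ug/ml (log2 fold change -1.07, SE 0.17, limma adjusted p = 5.63e-04). CD24, a surface protein of tubule progenitors, was 794, 803 and 645 in the control libraries and 306, 311 and 244 at 120 ug/ml (-1.38), CLU, clusterin, fell from 152 ± 38.4 to 73.3 ± 20, and LCN2, the siderophore binder NGAL, was low, at 4.9, 7.1 and 7.9 in the control libraries and 2.7, 3.4 and 1.8 at 120 ug/ml. The call of LCN2 was lost with equal library totals and without control replicate 2 or 3 or replicate 3 at 120 ug/ml (limma adjusted p 0.0517 to 0.0583). SOX9, a factor of regenerating tubule, was 1.1, 1.1 and 1.3 in the control libraries and 8.2, 8.2 and 8.1 at 120 ug/ml (2.08), close to 8 in each library at 120 ug/ml. SPP1, osteopontin, was 2861, 3021 and 2240 in the control libraries and 2057, 1894 and 2273 at 120 ug/ml and overlapped.

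Of 15 tested proximal tubule genes 1 rose and 7 fell (2 and 4 with equal library totals). ENPEP, the brush border peptidase that degrades angiotensin II, was 67.4, 57 and 48.9 in the control libraries and 16.1, 15.2 and 13.1 at 120 ug/ml (-1.89), and PDZK1, the scaffold of apical transporters, was 146, 152 and 126 in the control libraries and 59.1, 65.7 and 52.1 at 120 ug/ml (-1.25). SLC4A4, the basolateral bicarbonate transporter, fell from 20.3 ± 2.48 to 11.6 ± 0.404. The 1 member that rose was CYP27B1, which activates vitamin D (1.07 ± 0.231 to 2.1 ± 0.1), with its call lost without control replicate 1 or without replicate 2 at 120 ug/ml (limma adjusted p = 0.0766 and 0.0576). MIOX, an inositol oxidase of the proximal tubule, was 54.8, 50.1 and 35.8 in the control libraries and 50.5, 51.2 and 44.9 at 120 ug/ml and was not called. LHX1, a factor of the embryonic kidney, was 36.3 ± 2.33 in control and 42.1 ± 9.84 at 120 ug/ml and was not called.

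Cells bind crystals through hyaluronan, its receptor CD44, osteopontin and annexins. CD44 was 151, 118 and 114 in the control libraries and 309.8, 304 and 292 at 120 ug/ml (log2 fold change 1.25, SE 0.15, limma adjusted p = 1.18e-04). HAS3, a hyaluronan synthase, was 76.3, 79.1 and 65.8 in the control libraries and 129, 145 and 135 at 120 ug/ml (0.88). The annexin ANXA1 was 64.7, 59.4 and 72.7 in the control libraries and 35.2, 35 and 53.2 at 120 ug/ml (-0.68) and ANXA5 fell from 657 ± 37.7 to 445 ± 84.3. Both calls were lost with equal library totals, and that of ANXA1 also without replicate 1 or 2 at 120 ug/ml (limma adjusted p = 0.054 and 0.0529). ANXA2 was 794 ± 34.9 in control and 608 ± 145 at 120 ug/ml and was not called. Of the 13 tested members of this list 3 rose and 6 fell (3 and 1 with equal library totals), and the median of -0.34 turned to 0.024 under that scaling. The count that fell was 3 under quantile normalization and 3 without control replicate 2 or without replicate 1 or 2 at 120 ug/ml.

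The purine base enzymes APRT, XDH and HPRT1 showed small differences. APRT was 125, 132 and 117 in the control libraries and 114, 112 and 141 at 120 ug/ml and XDH, which forms DHA from adenine, was between 0.6 and 1.2 in all 6 libraries. HPRT1, the salvage enzyme of hypoxanthine and guanine, was 100, 110.4 and 107 in the control libraries and 111, 98.4 and 136 at 120 ug/ml. None of the 3 was called. Of 15 purine salvage and breakdown genes 4 rose and 4 fell (7 and 0 with equal totals). NT5E, the surface enzyme CD73 that makes adenosine, was 9, 6.3 and 5 in the control libraries and 28.3, 26.8 and 26.1 at 120 ug/ml (log2 fold change 1.89, SE 0.19, limma adjusted p = 4.54e-05). Of 10 de novo purine synthesis genes 5 rose and 0 fell (8 rose with equal totals), among them PFAS (0.74) and PPAT (0.71), the committed step.

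Of the signalling lists beside ERK, the BMP list had 2 of 16 tested members called higher and 8 called lower (5 and 5 with equal library totals; median -0.25, or 0.20). ID1, a direct BMP target, was 272, 287 and 268 in the control libraries and 92.1, 98.2 and 111 at 120 ug/ml (-1.45), ID2 fell from 45.5 ± 3.32 to 19.3 ± 3.38 and ATOH8 from 4.63 ± 0.493 to 0.267 ± 0.116. The ligand BMP2 rose from 6.07 ± 0.586 to 9.73 ± 0.551. In the TGF-beta list TGFBI, a secreted target, was 1592, 1519 and 1245 in the control libraries and 509, 407 and 383 at 120 ug/ml (-1.75), and the ligands TGFB2 and TGFB3 fell from 152 ± 18.6 to 69.4 ± 1.45 and 8.5 ± 1.28 to 2.27 ± 1.01. TGFB1 was 77.9, 82.4 and 68.5 in the control libraries and 82.6, 92.5 and 75.5 at 120 ug/ml, INHBA, an activin chain, rose from 20 ± 5.31 to 44.2 ± 11.4 and SMAD3 from 33 ± 2.5 to 54 ± 2.05. Of 15 tested TGF-beta genes 4 rose and 5 fell (6 and 3 with equal totals; 3 fell without replicate 2 at 120 ug/ml), and of 16 YAP and TAZ targets 4 rose and 5 fell (8 and 2 with equal totals; 8 fell with a replicate block and with length and GC trends subtracted). The YAP and TAZ targets that rose by a log2 fold change of at least 1 were NT5E and F3. CCN2, a target of YAP and TGF-beta, fell from 126 ± 14.6 to 59.5 ± 4.2, ANKRD1 from 142 ± 22.6 to 74.9 ± 15.2 and IGFBP3, the main carrier of insulin-like growth factors, from 648 ± 54.1 to 216 ± 30.3.

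Innate immune genes were lower in several lists. Of 13 complement genes 10 fell and 0 rose (8 fell with equal library totals; median -0.92, or -0.61). C3, the central component, was 83, 78.9 and 62.1 in the control libraries and 39.1, 36.3 and 26 at 120 ug/ml (-1.13), C1S, a protease of the classical pathway, was 10.1, 12 and 11.6 in the control libraries and 4, 3.2 and 3.5 at 120 ug/ml (-1.42), and CFI, a protease that inactivates C3b, fell from 8.77 ± 2.31 to 0.3 ± 0.173. Of 28 interferon-induced genes 15 fell and 2 rose (11 and 6 with equal totals). UBD, a ubiquitin-like modifier, fell from 5.83 ± 2.51 to 0.233 ± 0.208 and GBP2 from 6.43 ± 1.7 to 1 ± 0.2, while MX2 rose from 1.23 ± 0.252 to 3.27 ± 0.351. Of 12 antigen presentation genes 2 rose and 5 fell (2 and 3 with equal totals). B2M, the light chain of class I antigen, was 713 ± 47.4 in control and 267 ± 50.3 at 120 ug/ml (-1.43). TAP2, a subunit of the transporter that supplies peptides to class I antigen, rose from 0.633 ± 0.493 to 2.47 ± 0.416. NF-kB genes did not share this direction, with 7 of 15 called higher and 0 lower (13 higher with equal totals, and 4 without control replicate 2 or without replicate 1 at 120 ug/ml), among them the inhibitor TNFAIP3, which rose from 7.43 ± 1.79 to 15.5 ± 3.77. Of 17 chemokines and cytokines 3 rose and 7 fell (5 and 3 with equal totals). CXCL2 rose from 18.3 ± 1.34 to 43 ± 1.55 and IL6 from 55.4 ± 9.02 to 99.5 ± 5.98, IL32 fell from 576 ± 24.8 to 245 ± 23.6, and CXCL8 was 173, 177 and 233 in the control libraries and 242, 216 and 338 at 120 ug/ml.

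Redox genes moved in both directions. Of 21 NRF2 genes 7 rose and 6 fell (13 and 2 with equal totals). TXNRD1, thioredoxin reductase, was 86.9, 87.7 and 74.2 in the control libraries and 208, 195 and 230.4 at 120 ug/ml (1.34), HMOX1, heme oxygenase, was 36, 40.5 and 34.3 in the control libraries and 73.2, 61.9 and 92.2 at 120 ug/ml (1.00), and SLC7A11, the cystine importer, rose from 3.4 ± 0.9 to 8.2 ± 0.529. NQO1, a standard target of the factor NRF2, was 112, 118 and 118 in the control libraries and 136, 119 and 168 at 120 ug/ml and was not called. Of the 16 peroxidase, dismutase and related genes 12 fell and 0 rose (6 fell and 1 rose with equal totals). GSTP1, a glutathione transferase, was 1594 ± 61.2 in control and 694 ± 86.1 at 120 ug/ml (-1.20), GPX4, which reduces lipid peroxides, was 921, 930.2 and 863 in the control libraries and 484, 504 and 518 at 120 ug/ml (-0.85), and GPX3, a secreted peroxidase of the kidney, fell from 97.6 ± 4.14 to 44.8 ± 2.37. Of 15 heat shock proteins 6 rose and 3 fell (8 and 3 with equal totals). The small heat shock proteins HSPB8 and CRYAB fell from 72 ± 1.05 to 23.7 ± 1.97 and 81.7 ± 5.22 to 32.6 ± 2.26, and the chaperone HSPH1 and the co-chaperone BAG3 rose from 50.3 ± 4.59 to 79 ± 10.8 and 27.1 ± 1.59 to 41.4 ± 2.69.

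Lysosome and autophagy genes were lower more often than higher on the deposited scale, and the counts were nearly even with equal library totals. Under that scaling both medians still lay below the 0.27 of the median gene. Of 29 lysosome genes 17 fell and 2 rose, and with equal library totals 7 fell and 6 rose (median -0.37, or -0.0063). NPC2, which hands cholesterol out of the lysosome, was 942, 948 and 867 in the control libraries and 318, 296 and 363 at 120 ug/ml (-1.50), and the cathepsins CTSS and CTSH fell from 12.1 ± 2.57 to 4.57 ± 0.851 and 108 ± 6.89 to 52.4 ± 2.6. Quantile normalization gave 10 lysosome genes that fell. Of 18 autophagy genes 2 rose and 9 fell (3 and 4 with equal totals; median -0.33, or 0.024). GABARAPL1 and GABARAP, which coat autophagosomes, fell from 202 ± 34 to 69.3 ± 11.5 and 509.7 ± 38.6 to 199 ± 4.6. SQSTM1, the receptor p62, was 209 ± 17.1 in control and 220.1 ± 24.6 at 120 ug/ml and was not called. Of 20 p53 targets 6 rose and 6 fell (8 and 4 with equal totals), and 3 rose without replicate 3 at 120 ug/ml. Of 12 genes of the BCL2 family 2 rose and 4 fell (5 and 2 with equal totals). BMF and BCL2, which promote and block cell death, fell from 23.2 ± 2.47 to 5.1 ± 1.48 and 13 ± 1.21 to 5.27 ± 0.252.

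Of 2347 long noncoding RNA genes 154 (6.56%) rose and 302 (12.9%) fell, and of 886 pseudogenes 65 (7.34%) rose and 76 (8.58%) fell. An intergenic RNA with the identifier ENSG00000260877 was 0.3, 0.1 and 0.3 in the control libraries and 7.3, 6.3 and 5 at 120 ug/ml (2.54), and another, ENSG00000258088, was 0.5, 0.3 and 0.4 in the control libraries and 5.1, 5.9 and 5.6 at 120 ug/ml (2.22). LINC01111 was 21.4, 22.4 and 20.7 in the control libraries and 5.7, 5.2 and 4.7 at 120 ug/ml (-1.86) and LINC01508 6.9, 7.9 and 8.9 in the control libraries and 1.8, 1.4 and 1.3 at 120 ug/ml (-1.83). The antisense RNA PHLDA1-AS1 was 1.2, 3.8 and 6.4 in the control libraries and 9.3, 15.7 and 29.8 at 120 ug/ml. It overlaps PHLDA1, which also rose, and since no source used here gives the strand setting of the counting, the 2 cannot be told apart.

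Single transcripts were tested in the same way. Of 54340 transcripts 3754 (6.91%) were called higher and 4547 (8.37%) lower, with 9819 higher and 1937 lower under equal library totals. In 197 genes one transcript rose while another fell. Of 9130 annotated retained-intron transcripts 659 (7.22%) rose and 206 (2.26%) fell (median log2 fold change 0.168). Of 30068 protein-coding transcripts 2378 (7.91%) rose and 3583 (11.9%) fell (median -0.024). The share of retained-intron transcripts that rose was thus close to that of all transcripts, and the share that fell was lower. Retained-intron transcripts carried 4.59% to 4.71% of the matched signal in control and 5.46% to 5.79% at 120 ug/ml, and those marked for nonsense-mediated decay 1.94% to 2.02% and 2.33% to 2.49%. The total signal was lower at 120 ug/ml, so these shares do not show that the summed signal of either class rose. A transcript's value depends on how reads of shared exons were divided among isoforms, a step that no source used here describes.

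The share of a gene's signal that each transcript carried was tested for 33144 transcripts of 8101 genes. Of these 13 (0.0392%), in 11 genes, were called, 12 of them with a difference of at least 10 percentage points. This count depends on the settings, from 0 to 13 when a library was left out, 320 for genes with a sum of at least 20 and 919 with limma's diffSplice on log2 values. The junctions that tell the isoforms of 3 called genes apart are shown, since each gene moved toward or away from an alternative first or second exon. They are 30 bases of GENCODE 29 transcripts, 5′ to 3′, with the exon before the junction in lower case and the exon after it in capitals.
SQOR-201 (chr15, 45635108 to 45658907, plus strand): tccgctcacgcccggCCTGATCCTGCCTGA
SQOR-208 (chr15, 45632015 to 45658907, plus strand): agaatgactgcatgaCCTGATCCTGCCTGA
FAM20C-201 (chr7, 195732 to 208898, plus strand): ggatcaccagcgtggCCATGAAGTCGGGGG
FAM20C-202 (chr7, 195732 to 197130, plus strand): ggatcaccagcgtggCAGATTTTACTGGCA
TSC22D1-201 (chr13, 44436095 to 44436504, minus strand): gagacttgataatagCTCCTCTGGTGCAAG
TSC22D1-203 (chr13, 44436095 to 44573163, minus strand): tggcgaggatgagagCTCCTCTGGTGCAAG

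SQOR oxidizes hydrogen sulfide in mitochondria, and its 2 main transcripts join different upstream exons to the same exon. The share of SQOR-201 was 37.8, 34 and 39% in the control libraries and 67.9, 63.9 and 63.4% at 120 ug/ml (limma adjusted p = 0.0189), and that of SQOR-208 was 58.3, 61.2 and 55.1% in the control libraries and 24.6, 30.6 and 31.6% at 120 ug/ml (limma adjusted p = 0.0365). The transcript SQOR-208 fell (log2 fold change -1.36, SE 0.19, limma adjusted p = 0.00123) and SQOR-201 rose (log2 fold change 0.43, SE 0.10, limma adjusted p = 0.0176).

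FAM20C is the Golgi kinase that phosphorylates secreted proteins such as osteopontin. Its sum rose from 33.9 ± 3.67 to 86.1 ± 15.8. The noncoding 2-exon transcript FAM20C-202, which leaves the coding path after the shared exon, was 5.8, 5.8 and 4 in the control libraries and 41, 42.4 and 30.3 at 120 ug/ml (log2 fold change 2.65, SE 0.24, limma adjusted p = 1.66e-04). Its share was 16.1, 16.1 and 13.5% in the control libraries and 43.9, 43.8 and 44.6% at 120 ug/ml (limma adjusted p = 0.00537), nearly the same in each library of a group. The coding FAM20C-201 also rose, from 26.6, 25.6 and 22.5 to 48.7, 50.4 and 35.3, while its share fell (limma adjusted p = 0.0365).

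TSC22D1 is a leucine zipper regulator induced by TGF-beta. Its transcript TSC22D1-201, which begins at the exon next to the shared one, was 25.6, 28.2 and 24.6 in the control libraries and 7.3, 9.4 and 6.9 at 120 ug/ml (log2 fold change -1.62, SE 0.20, limma adjusted p = 5.97e-04), and its share was 44.9, 48.5 and 46.6% in the control libraries and 19.9, 22.4 and 19.2% at 120 ug/ml (limma adjusted p = 0.0473). TSC22D1-203, which starts far upstream, was 17, 18.2 and 13.5 in the control libraries and 14, 14.6 and 12.7 at 120 ug/ml and was not called. HPGD, which inactivates prostaglandins, fell as a gene from 49.1 ± 5.51 to 17.5 ± 1.82, and its transcript HPGD-202 held 52.6, 49.7 and 57.8% in the control libraries and 34.5, 32.9 and 29.6% at 120 ug/ml of it (limma adjusted p = 0.0365).

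**Figure D4:**
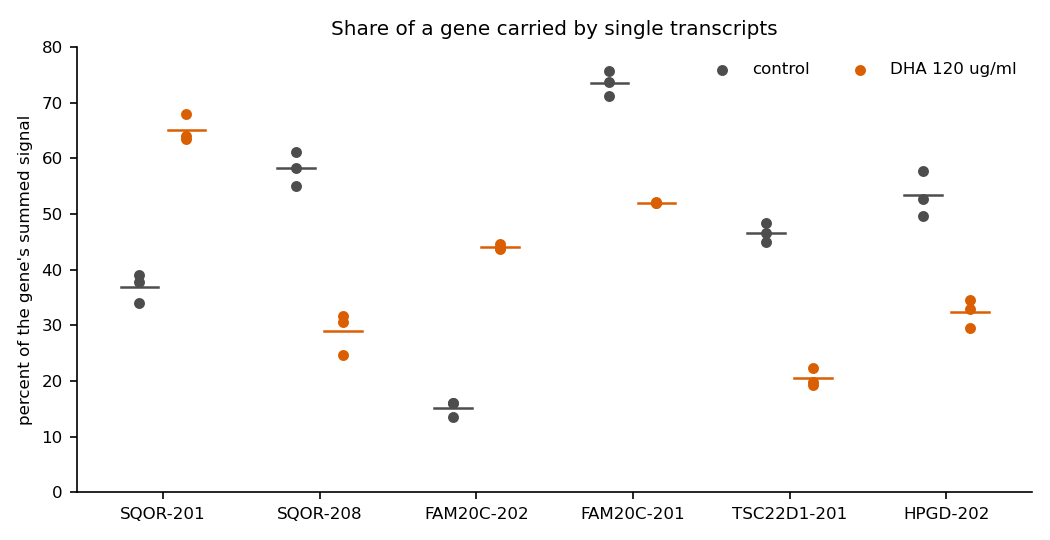
Percent of a gene's summed signal carried by single transcripts of SQOR, FAM20C, TSC22D1 and HPGD in each library (points) with group means (bars), control against 120 ug/ml DHA. The 3 libraries of a group lie close together and the groups do not overlap in these 6 transcripts, which were chosen for their difference.

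Isoforms of fibronectin and CD44 were looked at after their values were seen, because both proteins are known for exons whose use changes in injured epithelium. FN1-202 has the extra domain A exon (270 bases) and lacks the extra domain B exon (273 bases), FN1-201 has both, and FN1-211 has neither. FN1-202 was 110.1, 16.8 and 41.9 in the control libraries and 454, 500.1 and 579 at 120 ug/ml (log2 fold change 3.54, SE 0.57, limma adjusted p = 0.00251), and FN1-211 was 1408, 1424 and 1073 in the control libraries and 559.6, 458 and 291 at 120 ug/ml (log2 fold change -1.61, SE 0.43, limma adjusted p = 0.0271). FN1-201 was 589, 663 and 562 in the control libraries and 415, 637 and 394 at 120 ug/ml and was not called, and the gene sum was not called either. The shares of FN1-202 and FN1-211 were not called (limma adjusted p = 0.0636 and 0.112). These forms carried only part of the FN1 gene sum, and exon use over the whole gene was not tested. The junctions described here also occur in other expressed transcripts of FN1, so none of them marks a single transcript. The junctions printed next show where FN1-202 enters the domain A exon and where FN1-211 skips it, and where FN1-202 skips the domain B exon that FN1-201 enters.
FN1-202, into domain A (chr2, 215381080 to 215382212, minus strand): agactgcagtaaccaACATTGATCGCCCTA
FN1-211, past domain A (chr2, 215379317 to 215382212, minus strand): agactgcagtaaccaCTATTCCTGCACCAA
FN1-202, past domain B (chr2, 215391814 to 215394528, minus strand): ataccatcatcccagCTGTTCCTCCTCCCA
FN1-201, into domain B (chr2, 215393203 to 215394528, minus strand): ataccatcatcccagAGGTGCCCCAACTCA

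CD44-209 holds 3 variable exons of 102, 90 and 204 bases that the standard form CD44-201 lacks. CD44-209 was 10.9, 9.4 and 8.7 in the control libraries and 38, 34.7 and 39.7 at 120 ug/ml (log2 fold change 1.85, SE 0.17, limma adjusted p = 1.64e-04), and CD44-201 was 43.9, 41.8 and 41.6 in the control libraries and 85, 81.8 and 79 at 120 ug/ml (log2 fold change 0.93, SE 0.10, limma adjusted p = 3.17e-04). Both forms rose, and the share of CD44-209 in the gene was not called (limma adjusted p = 0.139). These forms carried only part of the CD44 gene sum, and their junctions also occur in other expressed transcripts of the gene. The junction into the first variable exon and the one that skips all 3 differ from the sixteenth base of these windows on.
CD44-209, into the variable exons (chr11, 35190065 to 35208105, plus strand): gaatccctgctaccaATATGGACTCCAGTC
CD44-201, past the variable exons (chr11, 35190065 to 35214852, plus strand): gaatccctgctaccaGAGACCAAGACACAT

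The middle dose was set directly against its neighbours. Against 60 ug/ml, limma called 90 genes (0.536%) higher and 270 (1.61%) lower in cells given 120 ug/ml. Without the third of the 60 ug/ml libraries the counts were 1040 and 1308, and leaving out any other library of the 2 doses gave 0 higher, so that the calls of CCND1, ARHGAP22, SNX6, VEGFA and ERRFI1 were lost, and 1 or 2 lower. CCND1 was 30.8, 20.2 and 34.2 at 60 ug/ml against 63, 51.7 and 55.8 at 120 ug/ml (log2 difference 1.00, SE 0.18, limma adjusted p = 0.0313). ARHGAP22 had the highest difference of the called protein-coding genes (1.21), followed by SNX6, VEGFA and ERRFI1 besides CCND1. MMP7 was 88.5, 158 and 64.6 at 60 ug/ml against 27.6, 26.7 and 31.1 (log2 difference -1.73, limma adjusted p = 0.0346), and PDZK1IP1, PSG8, PLA1A and LUM had the next lowest differences (-1.34 to -1.28). Against 240 ug/ml no gene was called by limma on the deposited scale, with 1331 genes at an unadjusted p under 0.05 and a lowest adjusted p of 0.0575. After scaling to equal totals, 1 gene stood higher and 2 lower at 240 than at 120 ug/ml.

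**Figure D5:**
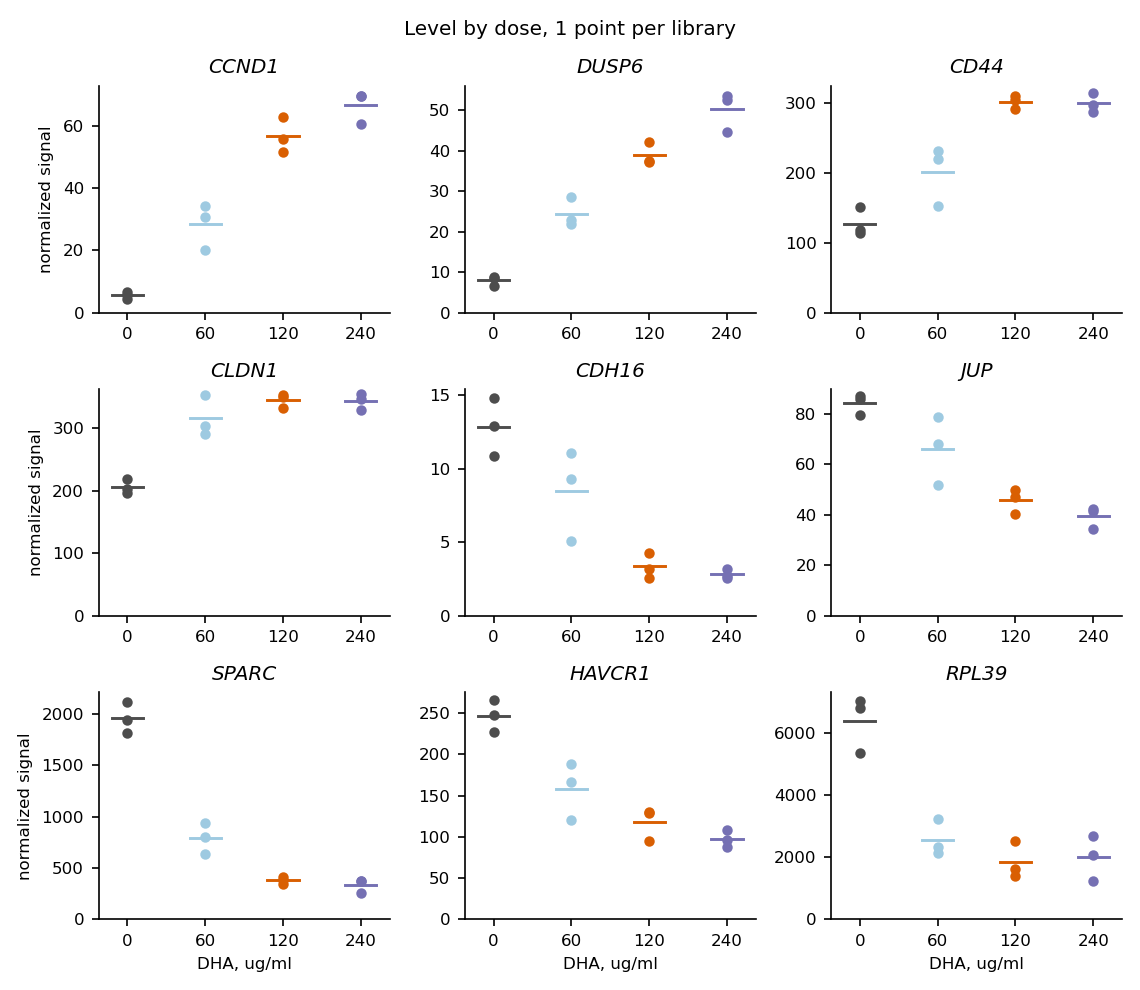
Deposited normalized signal of 9 genes by DHA dose, with a point per library and a bar for the mean of 3. CCND1, DUSP6, CD44 and CLDN1 lie higher and CDH16, JUP, SPARC, HAVCR1 and RPL39 lower at 120 ug/ml than in control. The libraries of 120 and 240 ug/ml overlap in each gene but DUSP6, which was 37.2 to 42.3 at 120 ug/ml and 44.6 to 53.7 at 240 ug/ml.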

How the data were processed

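HK-2 cells were sequenced in 12 libraries, 3 each of medium alone and of DHA at 60, 120 and 240 ug/ml, grouped by their titles. The authors deposited 1 table of a normalized signal per transcript, and the labels name neither its unit nor a quantification program. The build was GRCh38.p14 per the submitters' processing notes. No source used here gives the aligner, annotation or strand setting, and the read depth behind each value is unknown.

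Transcript identifiers were matched to GENCODE 29 (202305 of 267165, or 75.7%, holding 93.8% to 94.7% of the signal) and summed per gene, so a gene with unmatched transcripts is understated. Genes and single transcripts that reached 1 in 3 or more libraries were tested with limma 3.58.1 in R 4.3.3 (limma-trend, two-sided) on log2(value + 1), with 1 mean for each of the 4 groups, Benjamini-Hochberg adjustment over all features tested and a threshold of 0.05. Fold changes are on this log2 scale, which understates changes of low genes. Shares of a gene's sum were tested with limma on their arcsine square root, for genes with a sum of at least 5 in every library and transcripts of at least 5%. The labels do not say that libraries came from separate cultures, so the p-values measure the spread between libraries, which may be technical. Each test was tried on simulated data with known changes.

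The 58 gene lists, the tests and the rules were chosen with earlier results of these data known. The rule named the 12 highest and 12 lowest called protein-coding genes with a higher group mean of at least 10, up to 6 called members of each list, and the leading noncoding RNAs and transcripts. A few genes that the rule named are not reported here. Other genes named, mostly ones that were not called, were chosen after their values were seen. Alternatives covered the pseudocount, filter, scaling, replicate block, transcript length and left-out libraries. The fits with GC content subtracted and without the third library at 60 ug/ml were added after the data were seen.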

Additional observations from a re-analysis of the deposited data

How the results depend on the processing

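The calls between 120 ug/ml and control depended most on scaling. Equal library totals gave 6094 genes higher and 1356 lower, and 9819 transcripts higher and 1937 lower. Other settings kept the gene counts within 1.5 times those reported, and leaving out 1 library gave 2025 to 2333 higher and 2709 to 3152 lower. Transcripts called higher numbered 2406 with no filter on low values, and without 1 library 2202 to 2785 were higher and 2752 to 3696 lower. Called shares numbered 0 to 13 without 1 library, 320 with a gene sum of at least 20, 21 with a share of at least 10%, 0 in a fit on the 6 libraries alone and 919 with diffSplice. Against 60 ug/ml, equal totals gave 53 genes lower, and leaving out 1 library 0 to 1040 higher and 1 to 1308 lower. Between 240 and 120 ug/ml equal totals gave 1 gene higher and 2 lower. The cause of these shifts was not tested.

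Replicate numbers met no rule for pairing, which asked for every correlation of same-numbered libraries to exceed 0.1. These were 0.033, 0.012 and 0.04 between control and 120 ug/ml, 0.063, 0.109 and 0.227 between 60 and 120 ug/ml, and 0.032, 0.138 and 0.236 between 120 and 240 ug/ml, so some pairs of the treated groups were above it. Not every library correlated best with its own number. The third libraries stood apart from the others. They correlated with each other at 0.04 to 0.236 over all pairs of groups, and with libraries of other numbers at -0.21 to 0.004. In each group the third library also scored highest on the second principal component. The fit reported here has no term for this. A replicate block gave 3028 genes higher and 3898 lower against control, and 699 higher and 1086 lower against 60 ug/ml. With GC trends subtracted, added after the data were seen, 3317 genes were higher and 3243 lower.

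The fold changes of 14 named genes turned sign under equal totals or quantile normalization. Of these, 6 were called before or after. Quantile normalization gave ITGB1 0.083, CDH6 0.045, VIM 0.70, TPI1 0.66 and SPP1 0.46, and equal totals gave CDH6 0.10, VIM 0.32 and APRT 0.34. The other 8, CLDN2, CDH2, CDK4, CDKN1A, PCNA, GAPDH, ANXA2 and FN1, were called in neither. Of the 48 list counts of 1 to 4 genes, 20 moved by over 1.5 times without 1 library. The unknown read depth leaves the precision of single low values unknown.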
